A study of Homo sapiens with 2 samples.

Results

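Of the 8043 peaks in the anti-Flag library of LV-HOXA5 cells, 1995 lay deep inside genes, which is 24.8% of the list (exact 95% interval 23.9% to 25.8%). A peak was counted as deep intragenic when it overlapped the body of a GRCh38 RefSeq gene, lay over 3000 bp from the start and the end of every gene, and shared no base with a peak of the control library. The last condition left out few peaks, since 94.5% of all LV-HOXA5 peaks had no overlapping control peak. Among these 7599 peaks without a control peak, 26.3% were deep intragenic. Gene bodies offered 1372 Mb of sequence at such a distance from all gene ends, and the peaks were spread over it at 1.45 per Mb.

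The peaks came from CUT & Tag, in which an antibody brings a transposase to a protein on the DNA, so that the nearby DNA is cut and tagged for sequencing. TFK-1, a human cell line of extrahepatic cholangiocarcinoma, was transduced with a lentivirus for Flag-tagged HOXA5 (LV-HOXA5) or with the control lentivirus (LV-HOXA5-NC), and both were probed with an anti-Flag antibody. Each condition had 1 library from 1000000 cells, so the conditions could not be tested against each other and nothing here has a replicate. HOXA5 was expressed from the lentivirus, and the tagged protein is what the antibody detects.

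HOXA5 is a homeodomain transcription factor that patterns the embryonic axis and the development of several organs. Homeodomains recognise short AT-rich sequences with a TAAT core, and HOX proteins gain specificity by binding together with partner proteins. The inside of a gene, most of which is intron, can hold enhancers of that gene or of its neighbours, as well as alternative promoters from which shorter transcripts begin. Exons and introns were not told apart here.

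The control library was much the shallower one. It held 1948734 fragments after removal of duplicates, 12.4% of the 15778555 fragments of the LV-HOXA5 library, and its weakest listed peak had a pileup of 4 fragments over the summit. Scaled to the depth of the control, the median deep intragenic peak would have a pileup of 1.98 fragments, and 120 of the 1995 peaks (6.02%, exact 95% interval 5.01% to 7.15%) would reach 4. For the other peaks, the lack of a control peak was therefore not detectable as a difference at this depth. The endogenous HOXA5 gene carried a peak at chr7:27143075-27143674 with a pileup of 44 and a 7.55-fold enrichment. That peak lay near gene ends and was not deep intragenic, and whether its fragments came from the lentiviral copy or the gene itself cannot be told apart. These and all following intervals cover counting error only.

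Some deep intragenic peaks lay at transcript starts inside the gene, and the sequences in front of 8 such starts are shown first because this was the place where deep peaks were densest. The members of this group were chosen after their values were seen, from starts listed in RefSeq for GRCh38.p14 that are not an outer end of a gene. In TXNRD1, which encodes the cytosolic thioredoxin reductase, the peak at chr12:104286275-104287122 had the highest pileup at an internal start, 63 fragments with a 6.91-fold enrichment, and its summit lay 71041 bp from the 5′ end of the gene. The peak of the zinc finger gene ZNF749, at chr19:57435067-57435709, had a pileup of 41 and a fold of 8.68. KDM3A, a demethylase of histone H3 lysine 9, had a peak at chr2:86440813-86441356 with a pileup of 39 and a fold of 9.90, whose edge ended 15 bp before an internal start. GBF1, an exchange factor of the Golgi, had a pileup of 35 at chr10:102245227-102245730, and RTN4, a reticulon that shapes the endoplasmic reticulum, had 34 at chr2:55050467-55051369. These 5 peaks stood well above the median pileup of 16 of all deep intragenic peaks.

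The other 3 were of moderate height. KLF5, an epithelial transcription factor, had a pileup of 22 and a fold of 6.46 at chr13:73058615-73058997. RARB, the retinoic acid receptor beta, had 22 fragments and a fold of 4.73 at chr3:25428234-25428695, with the summit 599200 bp from the 5′ end of this long gene, and PCLAF, a PCNA-binding factor, had 19 fragments and a fold of 5.52 at chr15:64381424-64381676. For each of the 8 genes, the 250 bases before the internal start follow, 5′ to 3′ along the gene, on the plus strand for TXNRD1 (chr12:104286782-104287031), ZNF749 (chr19:57435075-57435324), KDM3A (chr2:86441121-86441370), GBF1 (chr10:102245282-102245531), KLF5 (chr13:73058755-73059004) and RARB (chr3:25428013-25428262), and on the minus strand for RTN4 (chr2:55050599-55050848) and PCLAF (chr15:64381442-64381691). The RTN4 peak also covered another internal start, whose window is not printed and held the AP-1 motif, no GC box and 43.2% GC. Capitals mark matches on either strand to any of the 7 motifs named in the next paragraph.
TXNRD1: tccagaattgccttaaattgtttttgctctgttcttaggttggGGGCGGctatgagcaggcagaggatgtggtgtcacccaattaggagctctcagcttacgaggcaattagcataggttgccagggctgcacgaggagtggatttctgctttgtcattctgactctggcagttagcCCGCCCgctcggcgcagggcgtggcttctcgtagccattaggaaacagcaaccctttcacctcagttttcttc
ZNF749: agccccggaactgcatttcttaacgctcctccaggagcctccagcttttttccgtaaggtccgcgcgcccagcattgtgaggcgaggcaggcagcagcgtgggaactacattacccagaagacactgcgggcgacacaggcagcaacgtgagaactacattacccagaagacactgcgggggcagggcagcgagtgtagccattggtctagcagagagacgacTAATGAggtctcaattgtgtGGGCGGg
KDM3A: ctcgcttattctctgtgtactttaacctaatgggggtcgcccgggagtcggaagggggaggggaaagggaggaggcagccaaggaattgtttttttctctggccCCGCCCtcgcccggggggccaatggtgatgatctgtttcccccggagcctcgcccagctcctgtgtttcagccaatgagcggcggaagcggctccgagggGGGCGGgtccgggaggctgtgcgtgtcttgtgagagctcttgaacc
GBF1: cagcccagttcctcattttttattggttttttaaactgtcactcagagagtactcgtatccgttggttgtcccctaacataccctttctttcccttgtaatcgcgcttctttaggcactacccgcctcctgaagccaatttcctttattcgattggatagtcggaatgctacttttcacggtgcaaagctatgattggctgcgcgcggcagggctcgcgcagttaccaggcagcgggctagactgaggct
RTN4: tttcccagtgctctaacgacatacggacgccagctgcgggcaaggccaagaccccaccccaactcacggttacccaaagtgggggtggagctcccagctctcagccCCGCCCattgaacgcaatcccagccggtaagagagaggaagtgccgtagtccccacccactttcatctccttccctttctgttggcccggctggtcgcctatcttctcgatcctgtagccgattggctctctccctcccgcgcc
KLF5: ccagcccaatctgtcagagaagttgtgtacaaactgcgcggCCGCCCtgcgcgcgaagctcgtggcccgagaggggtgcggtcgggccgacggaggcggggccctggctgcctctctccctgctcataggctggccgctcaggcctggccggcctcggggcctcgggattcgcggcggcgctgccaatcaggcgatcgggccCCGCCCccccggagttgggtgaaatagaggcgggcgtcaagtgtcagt
RARB: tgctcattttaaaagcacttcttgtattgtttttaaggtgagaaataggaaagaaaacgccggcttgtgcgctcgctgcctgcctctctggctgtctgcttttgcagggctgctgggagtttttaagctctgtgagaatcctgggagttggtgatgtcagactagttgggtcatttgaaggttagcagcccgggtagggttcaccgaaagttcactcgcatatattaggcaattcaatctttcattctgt
PCLAF: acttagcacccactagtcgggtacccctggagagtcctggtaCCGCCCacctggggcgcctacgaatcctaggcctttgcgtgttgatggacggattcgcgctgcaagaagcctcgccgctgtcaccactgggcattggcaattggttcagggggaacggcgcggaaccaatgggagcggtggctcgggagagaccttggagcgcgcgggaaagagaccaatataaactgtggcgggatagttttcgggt

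The windows differed in composition. TXNRD1, KDM3A, the printed window of RTN4, KLF5 and PCLAF held the GC box GGGCGG, the motif of SP and KLF factors, and ZNF749 held both GGGCGG and the homeodomain motif TAATGA. The windows of GBF1 and RARB held none of the motifs searched. The RARB window shared only 29 of its 250 bases with the peak, so it lay mostly outside it. The other printed windows shared 235 to 250 bases with their peaks. Over the 79 internal starts that a deep peak covered, GGGCGG was in 41 windows (51.9%, against 42.6% of all 35116 listed start windows of the same length). TAATGA was in 9 (11.4% against 7.75%), TAATTA in 1 (1.27% against 4.35%), the AP-1 motif TGANTCA in 8 (10.1% against 6.57%) and the E-box CACGTG in 3 (3.80% against 6.34%). The longer composite motifs TGATTAAT and TGATTGAT were in 0 of the 79 windows and in 0.615% and 0.416% of all. TAATTA and TGATTAAT can share bases with TAATGA. The median GC content was 59.6% in the covered windows and 58.0% in all, so the covered windows had much the same base composition as listed starts in general.

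Deep peaks were many times denser at internal starts than elsewhere in the gene body. Start positions were listed for chromosomes that hold 1886 of the 1995 peaks. Within 250 bp of a listed start there were 79 summits in 1.77 Mb, or 44.6 per Mb (exact 95% Poisson interval 35.3 to 55.6). The density was 15.1 per Mb from 250 to 500 bp, 3.11 per Mb from 500 to 1000 bp, and 1.35 per Mb (1.28 to 1.42) at over 10000 bp. Still, the starts account for few of the peaks: 67 of 1886 peaks (3.55%) covered an internal start, 120 (6.36%) lay within 1 kb of one and 144 (7.64%) within 3 kb.

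**Figure D1:**
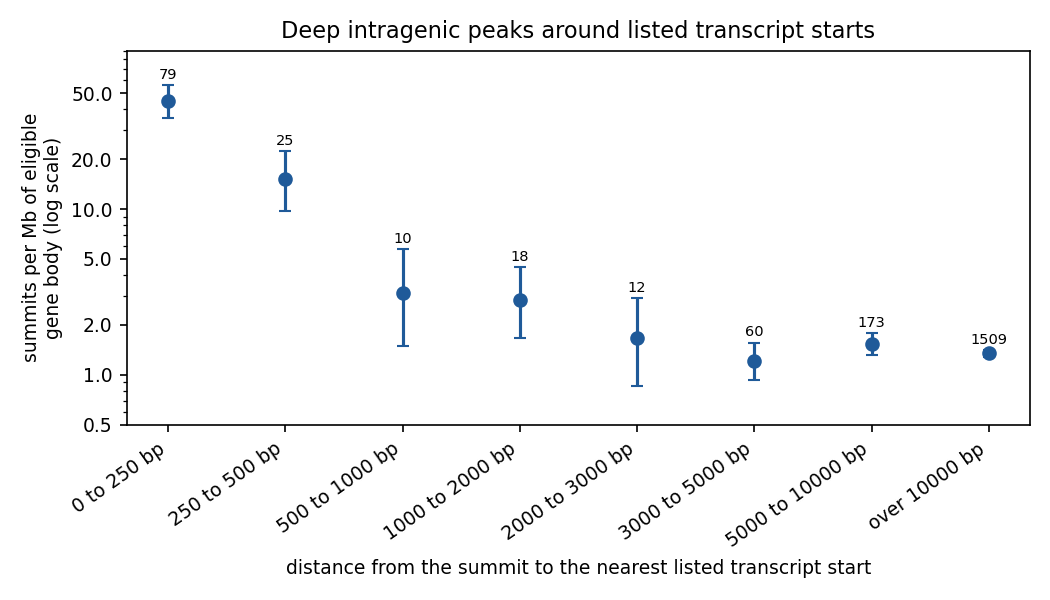
Summits of deep intragenic peaks per Mb of gene body over 3 kb from every gene end (log scale), by distance from the nearest listed transcript start. Points are densities with exact 95% Poisson intervals, the numbers above them are summits, and the density falls from 44.6 per Mb within 250 bp to 1.35 per Mb at over 10000 bp.

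Most internal starts carried no peak. Of 3755 listed starts over 3 kb from every gene end, 79 (2.10%, exact 95% interval 1.67% to 2.62%) were covered by a deep intragenic peak, whereas 1338 of 24757 starts at an outer end of a gene (5.40%, 5.13% to 5.69%) were covered by a peak without a control peak. The peaks themselves had a like height. The median pileup was 16 fragments (quartiles 13 to 19.5) over internal starts and 17 (13 to 22) over outer starts, with a median fold of 5.05 and 4.98. The summits of the peaks that covered an internal start lay at a median of 54 bp upstream of it (-54.0 bp relative to the start). In 115 genes a deep peak lay within 1 kb of an internal start, among them SIN3A, a corepressor scaffold, and KRT8, a keratin of simple epithelia, with a pair of such peaks each, at pileups of 44 and 24 and of 26 and 20.

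The strength of the deep intragenic peaks was ordinary for the list. Their median pileup was 16 fragments (quartiles 12 to 21, range 8 to 210) and their median fold enrichment, which MACS takes over the background around the peak in that library, was 4.61 (quartiles 4.07 to 5.45, range 1.77 to 16.6). Pileups from 10 to under 20 fragments made up 63.2% of the peaks, and 26 peaks reached 50 or more. The median length was 384 bp. Peaks within 3 kb of a gene end had a median fold of 4.76 at a pileup of 17, and peaks outside genes up to 500 kb from a gene had 4.61 at 16. Peaks over 500 kb from any gene had the same median pileup of 16 over a lower local background, 1.86 against 2.50 fragments, and so a higher median fold of 5.94.

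Strong peaks were somewhat rarer inside genes. A −log10 q-value of 10 or more was reached by 18.5% of all LV-HOXA5 peaks without a control peak and by 275 deep intragenic peaks, which is 13.8% (exact 95% interval 12.3% to 15.4%). The share was 17.7% (16.5% to 19.1%) of 3280 peaks near gene ends, 19.0% (17.0% to 21.1%) of 1522 peaks outside genes within 500 kb, and 32.3% (29.1% to 35.7%) of 802 peaks farther away. The interval of the deep intragenic peaks did not overlap those of the other classes. The 42 deep intragenic peaks that did overlap a control peak, which are not counted among the 1995, were higher, with a median pileup of 34, a median fold of 6.28 and 59.5% at or above 10. As peaks of 1 library are not replicates, these shares describe this library.

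**Figure D2:**
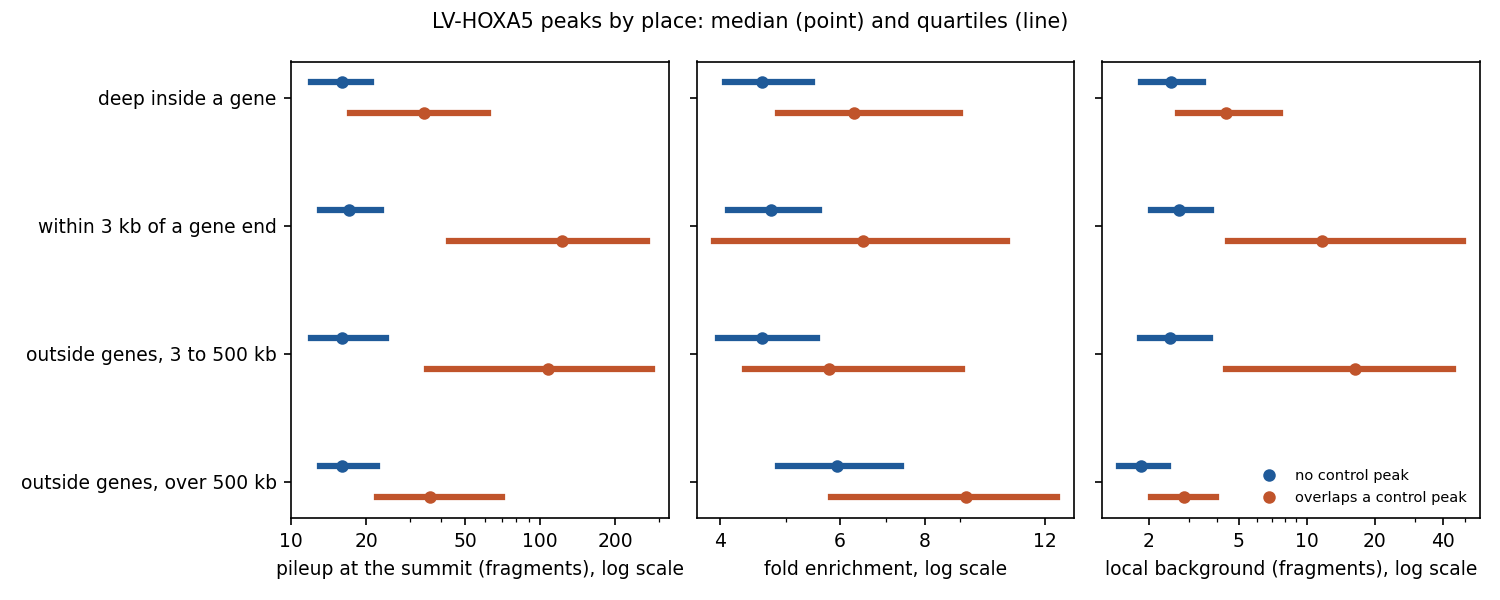
Pileup at the summit, fold enrichment and local background (log scales) of LV-HOXA5 peaks in 4 places, as medians (points) with quartiles (lines), without (blue) and with (orange) an overlapping control peak. Deep intragenic peaks without a control peak sit at a pileup of 16 and a fold of 4.61, close to the peaks near gene ends, and those with a control peak are higher in pileup and fold in all 4 places.

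The highest enrichment was in CACNA1C, which encodes the pore of an L-type calcium channel. The peak at chr12:2255797-2256070 had a pileup of 87 fragments over a background of 4.29, with an exact 95% Poisson interval of 69.7 to 107 for the pileup. Its enrichment was 16.6-fold, and it lay 13706 bp from the nearest gene end. CACNA1C also held a pair of deep peaks that overlapped control peaks, with folds of 12.7 and 4.67, so that peaks of the control library lay elsewhere in the same gene. HFM1, a helicase of meiotic recombination, followed with a fold of 12.8 at a pileup of 32 over a background of 1.58. LRRC27 had a fold of 10.8 at a pileup of 54, and RERE, a nuclear receptor corepressor, 10.7 at 42. These were the 4 deep intragenic peaks with a fold of 10 or more.

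The next peaks fell in a narrow band. KDM3A (9.90), the ciliary gene CFAP53 (9.60), the mannosyltransferase gene DPY19L1 (9.47), the sarcomere gene MYPN (9.16), the recombination gene RAD51B (9.08), the growth factor receptor gene IGF1R (9.03), the synaptic scaffold gene DLGAP2 (9.02) and the myosin gene MYO1E (8.77) each held a single peak above a fold of 8.7. The non-coding genes LOC105369890 (8.75) and LOC124900191 (8.72) and the zinc finger gene ZNF749 (8.68) completed the 15 highest. IGF1R, at chr15:98896851-98897609, combined this with a pileup of 60. DLGAP2, like CACNA1C, also held deep peaks that overlapped control peaks, 3 of them with folds of 4.61 to 6.06.

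By pileup, the 3 highest peaks lay in IGK, LOC102724701 and CDC27P10. IGK, the immunoglobulin kappa locus, held the highest peak, 210 fragments at chr2:89836294-89836812, and another of 112. LOC102724701 (186), CDC27P10 (139) and CTBP2P9 (68), all on chromosome 21, stood over local backgrounds of 44.6, 78.2 and 14.6 fragments, so that the fold of CDC27P10 was 1.77. The part of reads that map to several copies of a sequence was not tested. ACTN4, which encodes an actin cross-linking protein, had 131 fragments and a fold of 7.20 at chr19:38683442-38684646. CACNA1C (87), TRIM16L (73), SMAD3 (70) and the non-coding gene CYKILR (67, at a fold of 2.18 over a background of 30.2) followed. Without the peaks on chromosome 21 and in IGK, 1963 deep intragenic peaks with a median fold of 4.61 remained.

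The 1995 peaks overlapped 1588 genes, of which 1183 were protein-coding, and 357 genes held 2 or more. The 1183 hosts were 5.9% of all 20056 protein-coding genes. Where genes overlap, each base was credited to 1 of them, by the same rule as the peaks, and 15288 protein-coding genes were then credited with sequence at such a distance from gene ends. Of these, 1153 (7.54%) were hosts, and the remaining protein-coding hosts shared all such sequence with longer protein-coding genes. When each peak was given to 1 host by this rule, which takes a protein-coding gene where there is one and the longest such gene, 1445 hosts resulted and 1620 peaks (81.2%) lay in 1146 protein-coding hosts. Genes of lncRNAs took 329 peaks (16.5%). Per Mb of eligible gene body, meaning sequence over 3 kb from every gene end, all protein-coding genes together, hosts or not, held 1.52 peaks and all lncRNA genes 1.17.

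Most hosts held a single peak, and the share of genes that hosted one rose with their room. Of the 1445 hosts, 1108 had 1 peak, 228 had 2, 63 had 3 and 46 had 4 or more, and 887 peaks (44.5%) lay in hosts with at least 2. Among protein-coding genes with 10 to 30 kb of eligible body, 2.88% were hosts. The share was 8.13% at 30 to 100 kb, 20.2% at 100 to 300 kb, 32.2% at 300 kb to 1 Mb and 35.9% over 1 Mb. The density did not follow the same order, with 1.86 peaks per Mb at 100 to 300 kb, 1.21 at 300 kb to 1 Mb and 0.685 in the 64 genes over 1 Mb.

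PDE4D, which encodes a phosphodiesterase that degrades cAMP, held the most deep peaks. Its 14 peaks had pileups from 11 to 39 (median 18) and folds from 3.41 to 6.45 across a gene of 1553091 bp at chr5:58969038-60522128. They lay between 0.474 and 0.944 of the length from the 5′ end, and the summit nearest to the 5′ end was 735515 bp away from it. The highest, at chr5:59127105-59128073, had a pileup of 39 and a fold of 6.45, and a pair at chr5:59275849-59276233 and chr5:59276576-59277331 was 342 bp apart. Given the length, PDE4D had 9.58 peaks per Mb of eligible body.

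The other leading hosts were a mixed group. DLGAP1, a scaffold of synapses, held 8 peaks (pileups 9 to 33), all between 0.509 and 0.996 of the length from the 5′ end. Hosts with 7 peaks were MYO1E, a class I myosin (pileups 21 to 49), the lncRNA gene PVT1 (16 to 40), MACROD2, a hydrolase of ADP-ribose modifications (11 to 38), the zinc finger transcription factor gene GLIS3 (15 to 21) and PARD3, a scaffold of cell polarity (10 to 31). The 10 hosts with 6 peaks were LOC102724701, VMP1, SMAD3, THSD4, PPM1H, ME3, RAD51B, ANXA8, NRG1 and CDK6. ANXA8, an annexin gene with near-identical copies on chromosome 10, had pileups from 12 to 24, and how its reads were shared between copies was not tested. In THSD4, which encodes a protein of the extracellular matrix, 5 of 6 peaks reached a −log10 q-value of 10, with pileups of 32 to 43.

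**Figure D3:**
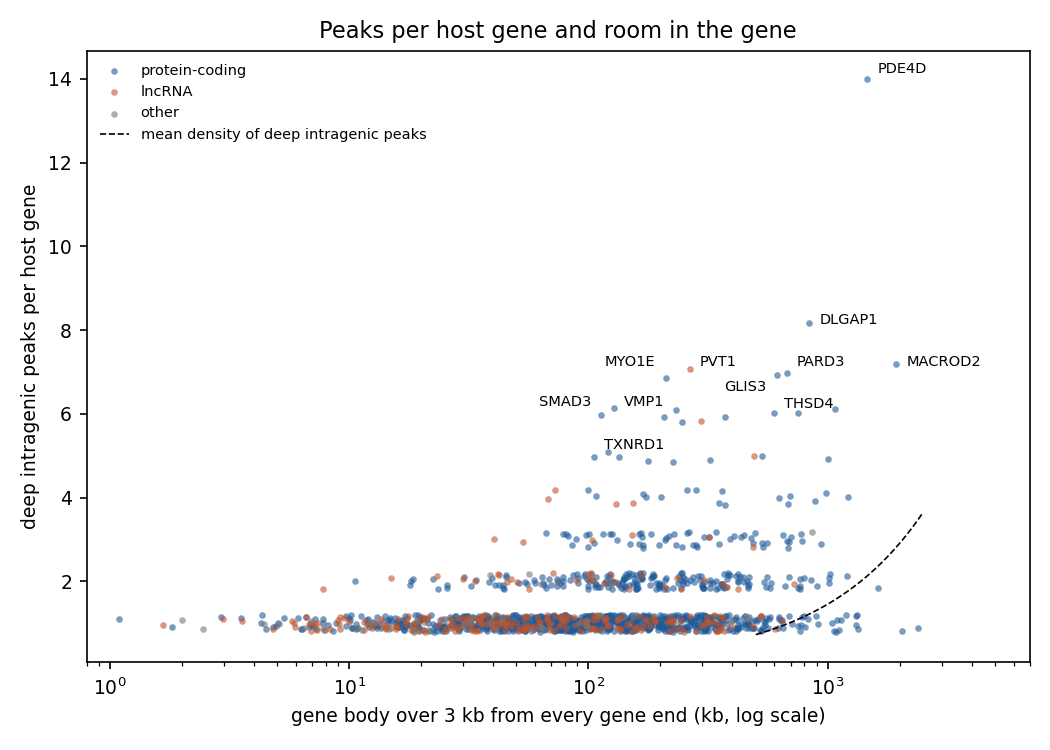
Deep intragenic peaks per host gene (vertical axis, points shifted slightly to separate them) against the gene body over 3 kb from every gene end (kb, log scale), by type of gene. The dashed line is the mean density of 1.45 peaks per Mb, PDE4D stands at 14 peaks, and SMAD3, VMP1 and TXNRD1 hold 5 or 6 peaks in little room. Only hosts are drawn, whereas the mean density is over all genes, so shorter hosts lie above the line by construction.

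Counted per length, the hosts ranked in another order. Among hosts with 3 or more peaks, the densest were 4 non-coding genes, named after their values were seen, CYKILR with 74.6 peaks per Mb of eligible body, ITGB1-DT with 58.7, LOC102723769 with 56.5 and LINC00973 with 55.4. Of the protein-coding hosts with 3 or more peaks, SMAD3, a transducer of TGF-β signals, was the densest, with 6 peaks at 52.9 per Mb. TXNRD1 held 5 at 47.4, VMP1, a membrane protein of autophagy, 6 at 47.0, IRAK2, a mediator of interleukin-1 receptor signalling, 3 at 45.0, and SUSD1 5 at 41.5. Over all eligible gene body, in hosts or not, the density was 1.45 per Mb. Hosts picked for 3 or more peaks lie above it in part by that choice. In SMAD3 (chr15:67065602-67195169) the peaks had pileups of 16, 63, 32, 22, 70 and 21 from the 5′ end on, and in VMP1 (chr17:59707654-59842255) of 44, 30, 46, 26, 48 and 64. The local background differed between the dense hosts. It was 3.75 to 12.3 fragments at the peaks of SMAD3 and 5.24 to 11.7 at those of VMP1, against a median of 2.50 at all deep intragenic peaks. The median fold was 3.63 in SMAD3 and 4.56 in VMP1. The background was 3.03 to 8.26 in TXNRD1, 3.65 to 5.70 in IRAK2 and 1.83 to 3.25 in SUSD1. In CYKILR the background was 26.6 to 31.6, with folds of 1.84 to 2.35. The part of the local background in these densities was not tested.

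**Figure D4:**
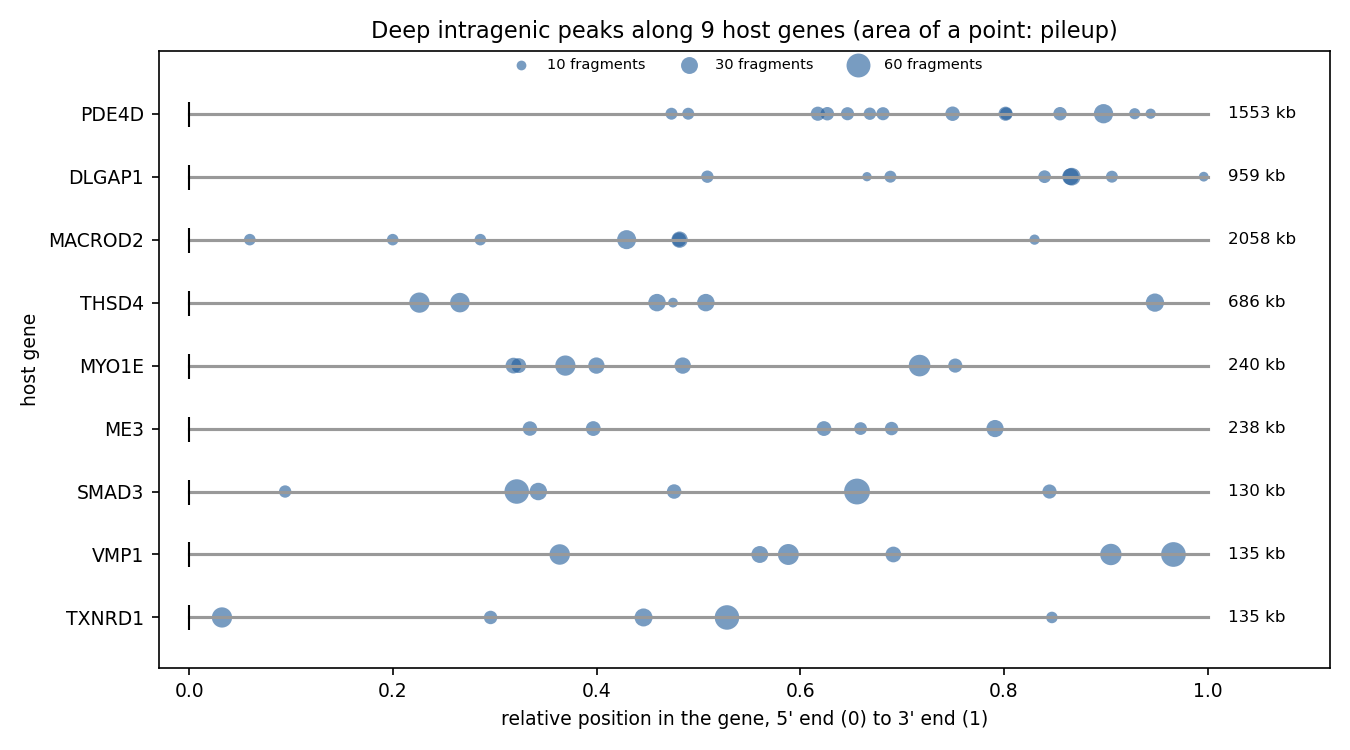
Deep intragenic peaks along 9 host genes, each drawn from its 5′ end (0) to its 3′ end (1), with the length of the gene in kb at the right and the area of a point proportional to the pileup. The 14 peaks of PDE4D start at 0.474 of the length, while those of TXNRD1 reach from 0.0322 to 0.847.

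The gaps between peaks in the same host varied widely. The 550 pairs of neighbours had a median gap of 24058.5 bp (quartiles 8035 and 71571.5 bp), and 159 pairs (28.9%) were at most 10 kb apart, 78 at most 5 kb and 24 at most 1 kb. The closest were in C1GALT1, a glycosyltransferase gene, with 271 bp between peaks of 12 fragments each, in GAGE12B with 290 bp between peaks of 26 and 18, and in ZNF608 with 294 bp between peaks of 20 and 16. GAGE12B is 1 of a family of near-identical genes on the X chromosome.

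Within the host gene, the peaks were spread broadly with a lean to the 5′ side. The strand was known for 1339 of the 1620 peaks in protein-coding hosts, and the median relative position, counted from the 5′ end, was 0.461 (quartiles 0.257 to 0.697, exact 95% interval of the median 0.436 to 0.482). The median of the eligible body of all protein-coding genes of known strand was 0.498. Without the peaks within 3 kb of a listed start, an alternative chosen after seeing the data, the median position was 0.477, nearer to that of the room. Divided into 5 equal parts from 5′ to 3′, these genes, hosts or not, held 1.59, 1.73, 1.60, 1.40 and 1.30 summits per Mb. The last part had 15.01% of the peaks (exact 95% interval 13.1% to 17.0%) against 17.6% of the room, and the part next to the 5′ one had 24.1% (21.9% to 26.5%) against 21.4%. The strength did not follow this order, as the median fold lay between 4.45 and 4.75 in all 5 parts.

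**Figure D5:**
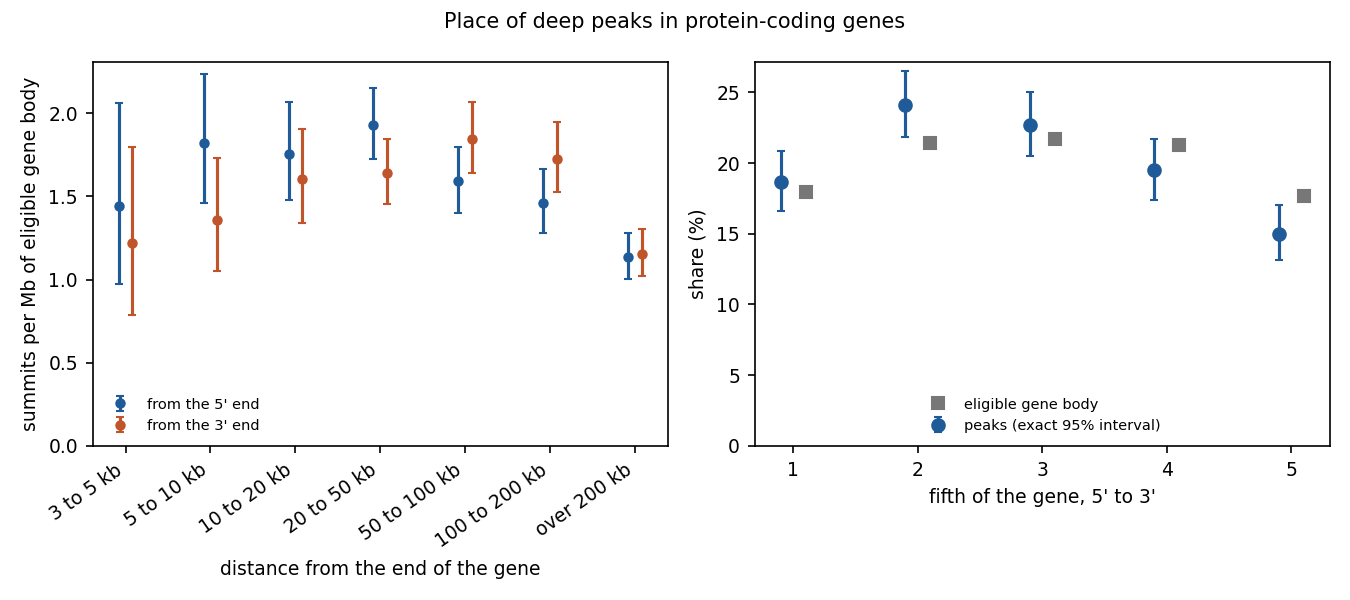
Left, summits per Mb of eligible gene body by distance from the 5′ end (blue) and the 3′ end (orange), with the body of all protein-coding genes of known strand as the room, and with exact 95% Poisson intervals. Right, share of peaks (blue, exact 95% intervals) and of eligible gene body (grey) in 5 equal parts of the gene, where the last part holds 15.01% of the peaks and 17.6% of the room.

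By distance, the density was 1.44 per Mb (exact 95% Poisson interval 0.974 to 2.06) at 3 to 5 kb from the 5′ end. It was 1.82 per Mb at 5 to 10 kb, 1.75 at 10 to 20 kb and 1.93 (exact 95% Poisson interval 1.72 to 2.15) at 20 to 50 kb from the 5′ end, and fell to 1.13 (1.00 to 1.28) at over 200 kb. The intervals up to 50 kb overlap, so no rise from the 5′ end was shown, whereas the interval at over 200 kb lay below that at 20 to 50 kb. From the 3′ end, it was 1.36 (1.05 to 1.73) at 5 to 10 kb and highest at 50 to 100 kb, with 1.84 (1.64 to 2.07). Over all hosts, the median distance to the nearest end of any gene was 15892 bp (quartiles 7928.5 and 32171.5 bp), and 69 peaks lay over 100 kb from every gene end, at 0.686 per Mb. The most remote were in PARD3B (346272 bp), MYO16 (282222 bp), ANK3 (256743 bp), ABCA13 (220026 bp) and PDE4D (213066 bp), with pileups of 12, 15, 9, 10 and 21. All 5 lay in long genes, and none reached a −log10 q-value of 10.

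Peaks lay close to the distance limit of the rule on both of its sides. The nearest inside it were in TARID (3009 bp), SLC16A12 (3017 bp) and RHOBTB1 (3062 bp), with pileups of 9, 20 and 18. Just outside it were peaks in ADAMTS18 (2998 bp, pileup 28), NBPF1 (2993 bp, 29), CCDC194 (2983 bp, 10) and THSD4 (2983 bp, 62). The THSD4 peak, at chr15:71294786-71296567, is not among the 6 counted for that gene.

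Pooled over lengths, hosts of deep peaks did not carry a peak at their own start more often than other genes. Of 947 protein-coding hosts with known strand, 120 (12.7%, exact 95% interval 10.6% to 14.96%) had an LV-HOXA5 peak without a control peak within 1 kb of their 5′ end. Of 11376 other protein-coding genes with eligible body, 1689 (14.8%, 14.2% to 15.5%) had one. By length class the order of the shares varied, with 16.8% of hosts and 17.0% of other genes at 30 to 100 kb of eligible body, and 13.0% and 13.2% at 100 to 300 kb. They were 9.76% (5.68% to 15.4%) and 7.85% at 300 kb to 1 Mb, and 4.76% (0.1205% to 23.8%) and 3.12% over 1 Mb. At 10 to 30 kb they were 8.42% (3.71% to 15.9%) and 16.5%, and at up to 10 kb 0 of 22 hosts (0% to 15.4%) and 12.6% of other genes had one.

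The chromosomes differed several-fold in density. Chromosomes 20, 19 and 17 held 2.95, 2.88 and 2.84 peaks per Mb of eligible gene body, chromosome 15 held 2.34 and chromosome 10 held 2.05. Chromosome 4 held 0.789, chromosome 13 0.611 and the X chromosome 0.595 (exact 95% Poisson interval 0.407 to 0.839). The Y chromosome held 1 peak, at 0.221 per Mb. The median local background at the peaks was 2.92, 3.61 and 3.23 fragments on chromosomes 20, 19 and 17. On chromosomes 4, 13 and X it was 1.97, 2.04 and 2.27, against 2.50 at all deep intragenic peaks. Chromosomes 15 and 10 had 3.27 and 2.61, whereas chromosome 7, at 1.94 peaks per Mb, had 2.36. The part of the local background in these densities was not tested.

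The hosts were also read against 8 lists of genes, each set beside the number of hosts that protein-coding genes of the same classes of eligible length would give. The lists were chosen with earlier results of these data known, so the counts are not a test of any list. Of 37 genes of epithelial adhesion and polarity, 13 were hosts, against 5.03 from their lengths. Besides PARD3, they were TJP1, a tight junction scaffold, with 2 peaks (pileups 18 and 26), and, with 1 peak each, the integrin genes ITGA3 (25) and ITGB8 (19), CD44 (22), TNS3 (22), TNS4 (20), the laminin gene LAMA3 (21), PTPRM, the cadherin genes CDH1 and CDH3, MAGI3 and PARD3B. Of 26 receptor tyrosine kinase genes, 6 were hosts against 3.24, and 5 of these held 2 or more peaks. IGF1R, EGFR and MET held 4 peaks each, with maximal pileups of 60, 28 and 25, ALK held 3 (21), EPHB2 held 2 (17) and AXL held 1 (36).

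Among 33 genes of the Wnt, TGF-β and Hippo pathways, 9 were hosts against 4.60 from their lengths. After SMAD3, these were WWTR1, the Hippo effector TAZ, with 5 peaks (maximal pileup 28), TCF7L2 with 3 (31), TGFB2, TEAD1 and BMPR1B with 2 each (25, 18 and 12), and SMAD6, TEAD2 and YAP1 with 1 each (25, 16 and 10). Among 34 epithelial transcription factor genes, 9 were hosts against 5.39. RARB had 3 peaks (maximal pileup 22), ZBTB20 (24), GRHL2 (20), PPARG (19), ETS1 (15) and FOXP1 (15) had 2 each, and EHF (26), KLF5 (22) and NFIB (13) had 1 each. The median fold in these 4 lists was 4.14 to 4.95, near the 4.61 of all deep intragenic peaks.

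The other 4 lists were nearer to what their lengths gave. Of 35 very long genes, many of them at fragile sites, 13 were hosts against 12.3, among them PDE4D, MACROD2, THSD7A with 3 peaks (maximal pileup 22), SDK1 with 2 (13), and IL1RAPL1 (25) and DLG2 (14) with 1 each. Of 25 genes of the biliary and liver lineage, 2 were hosts against 1.22, namely MUC1 (pileup 29) and CFTR (2 peaks of 12), and of 31 genes mutated in cholangiocarcinoma, KMT2C (15) and PBRM1 (10) were hosts, against 3.22.

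Of 27 genes that the study names in its work on HOXA5 and MXD1, whether or not their expression changed, CDH1 was the 1 host, against 0.981 from their lengths. CDH1 encodes E-cadherin, the cadherin of epithelial junctions. Its peak at chr16:68760803-68761235 had a fold of 4.83, 15 fragments at the summit (8.395 to 24.7, exact 95% Poisson interval) and a −log10 q-value of 4.92, and lay 18230 bp from the nearest gene end. No deep intragenic peak lay in HOXA5, MXD1, MYC, MAX, E2F2, E2F7, E2F8, CDK2, CDK4, MCM6, NASP, PCNA, CDH2, VIM, AIFM1, BCL2, CCNE1, CCNB1, GTSE1, CCNG2, BID, BBC3, IGFBP3, GADD45A, GADD45G or MKI67, and 20 of the 27 genes were credited with sequence over 3 kb from every gene end. The rule leaves out peaks within 3 kb of gene ends, so this count does not bear on promoter peaks. For MXD1, the paper reports a peak in the promoter region.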

How the data were processed

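Per the labels and the submitters' processing notes, reads were aligned to GRCh38, and fastp, Bowtie2, deepTools, MACS2 and ChIPseeker were used. Per the file headers, the authors called peaks with MACS 2.2.7.1, separately per library, from de-duplicated read pairs, with a q-value limit of 0.05, a regional background of 10000 bp and no control library. The shortest allowed peak was 246 bp for LV-HOXA5 and 283 bp for the control. The deposited tables list, per peak, a pileup signal (the unscaled fragment number at its highest point), the fold enrichment over local background, the −log10 p-value and the −log10 q-value. The integer score of the second deposited form was used only for checks.

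Local background was recovered as (pileup + 1) / fold − 1. Peaks sharing 1 bp overlapped. Genes were 59792 RefSeq genes, and strand and internal starts came from a RefSeq start table of GRCh38.p14 without chromosome 8 and not complete. Shares have Clopper-Pearson and counts exact Poisson 95% intervals. Distance, overlap and density functions were tested on simulated data. Named genes were the 15 hosts with most peaks (ties by higher summed pileup, and the 2 other hosts tied at 6 peaks are named too), the hosts of the 15 peaks of highest fold, the 10 of highest pileup and the 5 farthest from gene ends, the 3 closest pairs, the 5 densest protein-coding hosts with 3 or more peaks, and up to 8 hosts per gene list, beyond which the other hosts of a list are named too. The peaks, lists and rules were chosen with earlier results of these data known, and the internal starts after the reference tables were seen. Sequence was used only in the RefSeq windows before listed starts, part of which lie under peaks, and some items of the lists are not reported here. Tools were Python 3.11.15, NumPy 2.4.6, pandas 2.3.3, SciPy 1.17.1 and Matplotlib 3.10.9.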

Additional observations from a re-analysis of the deposited data

Results flagged for a closer look

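The control list, from cells without Flag-HOXA5, also held peaks deep inside genes. Of its 635 peaks, 114 met the same distance rule, and 71 of these (62.3%, exact 95% interval 52.7% to 71.2%) shared no base with an LV-HOXA5 peak although that library was deeper. Of all 635 control peaks, 186 (29.3%, 25.8% to 33.0%) shared none. The 71 deep peaks had a median pileup of 6 fragments with a median fold of 4.98, and the highest, in DRC8, had 18 fragments.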

How the results depend on the processing

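The 6 main results were recomputed under 12 other settings, 2 of them chosen after seeing the data, which gave 71 comparisons, and 62 stayed within 1.5 times a count or within the 95% interval of a median. With a q-value of 0.001 or less the median fold was 4.91. With a fold no lower than the list's median, 852 peaks, 786 hosts and 111 hosts with 2 or more remained. The median distance to a gene end was 33298.5 bp with protein-coding genes only, 18674.5 bp at over 5000 bp from gene ends and 24875 bp at over 10000 bp, where 1016 hosts remained and 237 held 2 or more. The settings that change the distance rule move this median by their construction. Leaving out peaks near listed internal starts left 1851 peaks. No paired analysis was possible because each condition had 1 library, and for the same reason no library was left out. The planned motif count in windows around the summits was not run, as sequence was at hand only for the listed start windows. Depth limits the comparison with the control, as most peaks would be too low to be listed at its depth.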
